A study of Mus musculus with 2 samples.

Results

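Secreted antibacterial lectins and acute phase proteins of the gut wall were followed in single cells of mouse colon. The genes were the regenerating-family lectins Reg3b, Reg3g and Reg4, the serum amyloid A genes Saa1, Saa2 and Saa3, and the siderophore-binding lipocalin Lcn2. They are 7 of the 33083 genes listed for both libraries, and all 7 were matched by symbol. The libraries came from a transgenic Alzheimer's disease model, named APP/PS1-21 in the design text and AD in the labels, and from wild-type (WT) mice, with 1 library for each genotype. The labels used here give no age, no number of animals per library and no promoter for the transgenes, and no treatment is named for either library. The tissue was cut up and dissociated by trypsin with added DNase I. The genes had been picked because they differed between these libraries, so every AD to WT value is a description of 2 libraries and carries no test. Intervals in parentheses are exact 95% limits, Poisson for summed UMIs, Clopper-Pearson for shares of cells and conditional on the total for ratios, and they cover counting error only. Where no cell held a UMI, the limit on the share of cells is instead 3 divided by the number of cells, somewhat below the exact limit.

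The AD library held 6675 barcodes with 38731915 UMIs, and the WT library 4146 barcodes with 26898149 UMIs. A UMI is a tag that marks 1 captured RNA molecule. More than 25% of UMIs were mitochondrial in 29.2% of AD barcodes and in 60.4% of WT barcodes. The limit of 25% kept 4691 AD and 1550 WT cells, with median depths of 3720 and 3724.5 UMIs, and a limit of 50% kept 6395 AD and 3274 WT cells. Values are at the 25% limit unless 50% is named, because some values differ between these limits. In all, 7 barcodes occurred in both libraries. Cells were gated by marker genes, and epithelial-like cells numbered 1525 in AD and 540 in WT. Within them, colonocyte-like cells numbered 471 in AD and 135 in WT, goblet-like cells 492 and 90, crypt-like cells 237 and 134, and enteroendocrine-like cells 63 and 49. Of the markers that set the gates, 9 of 10 for colonocytes and 8 of 8 for goblet cells were at least 4-fold above all other kept cells. The same markers assigned the cells, so this enrichment follows from the gate and is no independent check. The crypt gate was the weakest, with 3 of 10 markers at that level, and tuft-like cells, with 3 in AD and 11 in WT, were too few to describe.

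Regenerating islet-derived 3 proteins are small C-type lectins that the gut epithelium secretes into the lumen. Reg3g binds the cell wall of Gram-positive bacteria and kills them, and Reg3b acts mainly on Gram-negative bacteria. Both are known for low levels in germ-free mice and for induction by interleukin 22 through Stat3 and by bacterial signals through Myd88. Reg4 is a related lectin made by secretory cells of the colon crypt, where it marks the deep crypt secretory cells that surround stem cells. Serum amyloid A proteins are made by liver during the acute phase response, while Saa1 and Saa3 are also made by intestinal epithelium in contact with bacteria and carry retinol. Lcn2 withholds iron from bacteria by binding their siderophores, and its protein in faeces is a widely used sign of gut inflammation.

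The sequences just upstream of the start sites are shown for the Reg3 pair and for the serum amyloid A genes, because they let the genes of each family be compared letter by letter. They come from RefSeq on GRCm38.p6, 250 bases each, written 5′ to 3′ on the strand of the gene and ending at the base before the annotated start. Reg3b lies on the plus strand at chr6:78370635-78370884 and Reg3g on the minus strand at chr6:78468875-78469124. Saa1 lies on the minus strand at chr7:46742981-46743230, Saa2 on the plus strand at chr7:46751583-46751832 and Saa3 on the minus strand at chr7:46715677-46715926. Capitals mark matches, on either strand, to a Stat-type motif (TTCNNNGAA), to a Rel-type motif (3 G, then 5 bases of any kind, then 2 C) and to a C/EBP-type motif (TTNNGNAA). In Saa1 a C/EBP-type and a Rel-type match adjoin and read as 1 run of capitals.
Reg3b: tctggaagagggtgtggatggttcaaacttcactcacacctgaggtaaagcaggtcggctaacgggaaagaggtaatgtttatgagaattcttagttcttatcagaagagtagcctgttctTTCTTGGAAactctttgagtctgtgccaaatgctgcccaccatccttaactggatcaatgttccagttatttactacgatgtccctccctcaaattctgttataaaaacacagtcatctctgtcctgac
Reg3g: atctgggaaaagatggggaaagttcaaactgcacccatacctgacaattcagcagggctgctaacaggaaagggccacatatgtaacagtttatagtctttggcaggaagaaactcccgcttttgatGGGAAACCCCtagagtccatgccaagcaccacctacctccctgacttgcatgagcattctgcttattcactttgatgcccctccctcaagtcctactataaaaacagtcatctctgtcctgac
Saa1: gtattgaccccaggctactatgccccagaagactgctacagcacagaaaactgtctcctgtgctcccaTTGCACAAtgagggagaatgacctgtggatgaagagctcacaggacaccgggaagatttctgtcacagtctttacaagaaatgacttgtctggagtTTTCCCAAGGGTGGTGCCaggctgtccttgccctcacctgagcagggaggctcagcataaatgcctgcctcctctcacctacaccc
Saa2: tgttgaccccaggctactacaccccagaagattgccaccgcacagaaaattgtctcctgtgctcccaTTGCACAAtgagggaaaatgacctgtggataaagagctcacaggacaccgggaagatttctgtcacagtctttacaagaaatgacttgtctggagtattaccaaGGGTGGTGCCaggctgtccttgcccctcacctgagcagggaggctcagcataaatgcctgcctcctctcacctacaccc
Saa3: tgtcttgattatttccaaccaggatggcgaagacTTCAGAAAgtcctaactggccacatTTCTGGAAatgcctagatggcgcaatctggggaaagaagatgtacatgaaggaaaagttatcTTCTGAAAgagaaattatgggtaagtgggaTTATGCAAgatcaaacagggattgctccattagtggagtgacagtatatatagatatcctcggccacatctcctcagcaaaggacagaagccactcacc
The Stat-type letters were present in the window of Reg3b, at positions -129 to -121 from the start, and in 7.02% of 32851 promoters of this length. The Rel-type letters were present in Reg3g, Saa1 and Saa2 among those shown, and in 45.8% of promoters. The C/EBP-type letters occurred 4 times in Saa3, 2 times in Saa1 and 1 time in Saa2, and in 36.8% of promoters at least once. The upstream windows were 68.4% identical between Reg3b and Reg3g, 94.8% identical between Saa1 and Saa2, and 48.5% identical between Saa1 and Saa3. The libraries read the 3′ ends of transcripts, and the last 300 bases of the Saa1 and Saa2 transcripts were 92.4% identical, so the split of reads between these 2 genes is less certain than for the others. Of 91-base windows along the Saa1 transcript, 1.73% also occurred in Saa2. The 3′ ends of Reg3b and Reg3g were 55.7% identical and shared no such window. In Saa3, 0.379% of windows also occurred in Malat1.

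Reg3b (ENSMUSG00000071356) was the gene of the group with the greatest gap between the libraries. Epithelial-like cells of the AD library held 1 Reg3b UMI in 1 of 1525 cells, against 1361 UMIs in 44 of 540 WT cells. As levels, these were 0.0559 UMIs per 1000000 (CPM; 0.00141 to 0.311) in AD and 160 CPM (151 to 168) in WT, so the WT level was 2859 times the AD level, with an interval of 512 to 113019. Colonocyte-like cells held 0 Reg3b UMIs in 471 AD cells, which allows a share of up to 0.637% of cells with a UMI, and 1152 UMIs in 18 of 135 WT cells. With the AD class set at 3 counts in place of 0, Reg3b was at least 1105-fold lower in AD colonocyte-like cells. That bound rests largely on 1 WT cell, which held 987 of the 1152 UMIs (85.7%). Without the highest cell, 165 UMIs remained in the WT class. The gene was also present in WT crypt-like cells, at 19.7 CPM (15 to 25.3), and in WT enteroendocrine-like cells, at 22.2 CPM (10.7 to 40.9). It was not detected in the 90 WT goblet-like cells, where 0 UMIs allow up to 3.33% of cells with a UMI, while at the 50% limit 4 WT goblet-like cells held 5 UMIs. Such limits concern cells with a UMI at this depth, not cells that express the gene. Among WT B-like cells, which should lack the gene, 1 UMI was seen in 183 cells, or 1.98 CPM (0.0502 to 11), so the free RNA level of Reg3b was low.

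Most Reg3b RNA of the WT library came from few cells. The highest WT cell held 987 Reg3b UMIs, 72.5% of the epithelial-like total, and the 5 highest held 86.3%. Among the 44 WT cells with a UMI the median count was 4.5, the lowest 1, and 7 cells reached 10 or more. Without the highest cell in each library the sums were 0 UMIs in AD and 374 in WT, and without the 5 highest they were 0 and 187. After every cell was thinned to 1000 UMIs, leaving out 11 AD and 13 WT shallower cells, Reg3b was seen in a median of 0% of AD and 6.56% of WT colonocyte-like cells over 20 draws, against 0% and 13.3% without thinning. At the 50% limit the sums were 1 UMI in 1 of 2645 AD cells and 2987 UMIs in 142 of 1984 WT cells. As levels, these were 0.045 CPM (0.00114 to 0.25) in AD and 173 CPM (167 to 180) in WT.

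Reg3b also varied with the mitochondrial share of the cells within the WT library. Epithelial-like cells with up to 10% mitochondrial UMIs held 0 Reg3b UMIs in both libraries, in 405 AD and 106 WT cells. From 10 to 25%, Reg3b stood at 0.0952 per 1000000 non-mitochondrial UMIs (0.00241 to 0.53) in AD and at 224 (212 to 237) in WT. From 25 to 50% it stood at 0 (up to 1.26) in AD and at 305 (290 to 320) in WT, and above 50% at 0 (up to 6.12) in AD and at 118 (103 to 135) in WT. In colonocyte-like cells AD held 0 UMIs in all 4 bins, while WT stood at 0, 706, 470 and 35.9 in order of rising mitochondrial share. A single WT cell with 987 Reg3b UMIs lay in the 10 to 25% bin, which held 1309 UMIs in epithelial-like and 1097 in colonocyte-like WT cells. The WT level of that bin, and its order beside the next bin, therefore rest largely on 1 cell. In the lowest epithelial-like bin the counts of 0 leave room for up to 0.763 per 1000000 in AD and 2.79 in WT. These bins use gates set over all barcodes, so their cell numbers differ slightly from those at the 25% limit.

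Reg3g (ENSMUSG00000030017) was also lower in AD. Epithelial-like cells held 6 Reg3g UMIs in 3 of 1525 AD cells, 2 in each, against 424 UMIs in 31 of 540 WT cells. These were 0.335 CPM (0.123 to 0.73) in AD and 49.8 CPM (45.2 to 54.7) in WT, a WT level 148 times the AD level (67.6 to 407). Colonocyte-like cells held 2 UMIs in 1 AD cell and 256 UMIs in 8 WT cells. Crypt-like cells held 0 UMIs in 237 AD cells and 65 UMIs in 10 of 134 WT cells, at least 27.1-fold lower in AD. Reg3g rested less on a single cell than Reg3b, since the highest WT cell held 173 UMIs, or 40.8% of the sum. Among WT colonocyte-like cells, however, that cell held 67.6% of the Reg3g UMIs, and the 5 highest held 96.1%. Its depth matched, within rounding, that of the cell with 987 Reg3b UMIs, so 1 cell probably led both genes. With the 50% limit the sums were 7 UMIs in AD and 794 UMIs in WT, and at a limit of 10% only 4 and 5 UMIs remained.

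**Figure D1:**
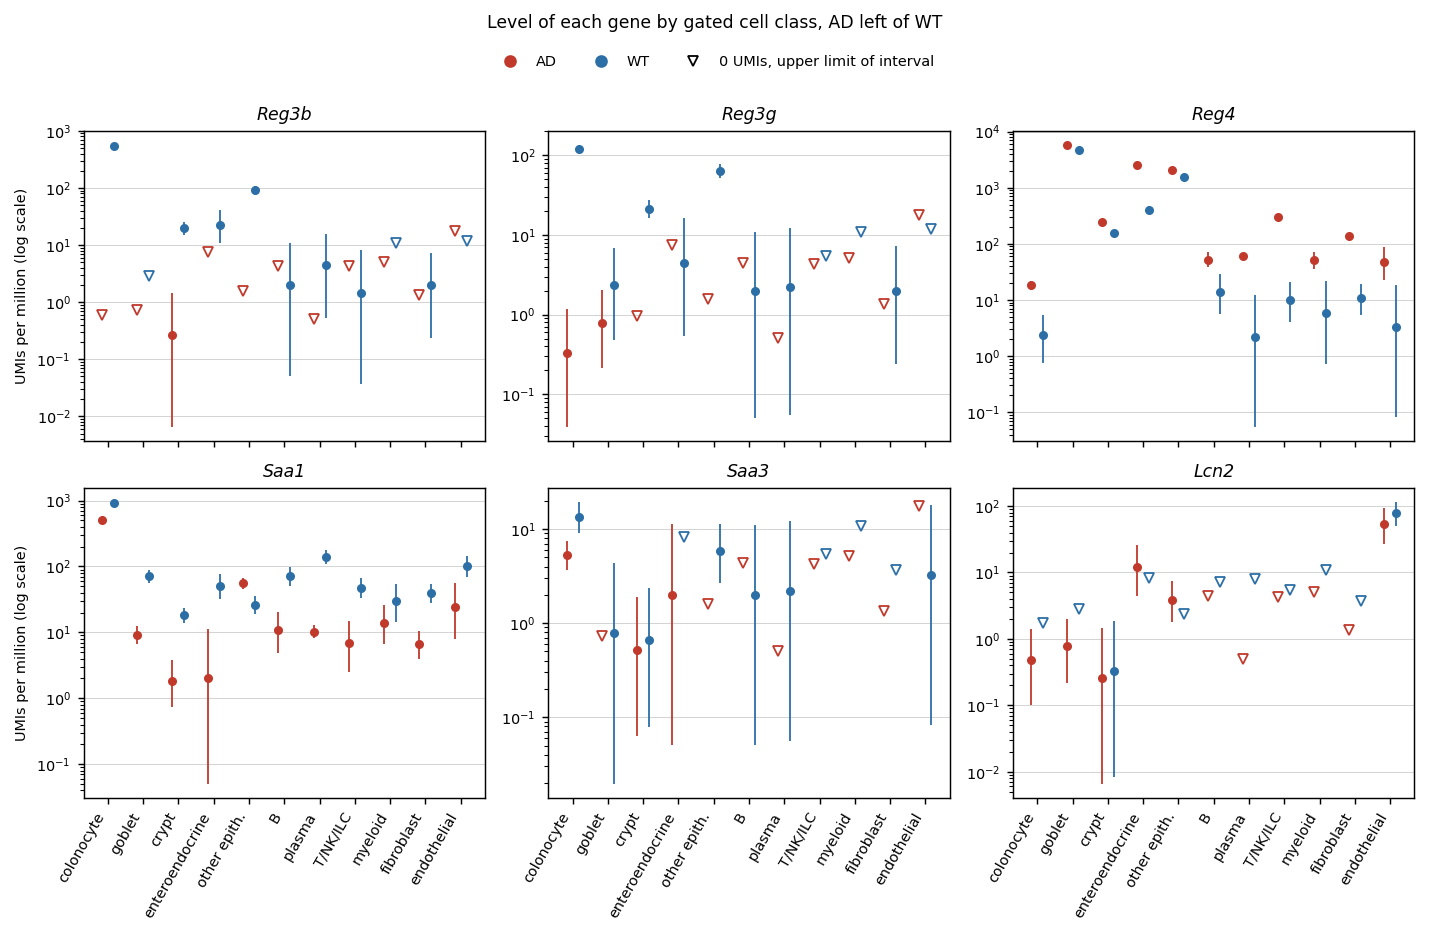
Summed level of 6 of the 7 genes in 11 gated cell classes at the 25% limit, in UMIs per 1000000 on a log axis, with exact Poisson 95% intervals and AD left of WT (1 library each). Open triangles stand at the upper limit where a class held 0 UMIs. Reg3b and Reg3g are far lower in AD than in WT in colonocyte-like and crypt-like cells, at 0.325 CPM in AD and 120 CPM in WT for Reg3g in colonocyte-like cells. In that WT class 1 cell held 67.6% of the Reg3g UMIs and 85.7% of the Reg3b UMIs.

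The Reg3 genes shared cells. Of the 44 WT epithelial-like cells with Reg3b, 17 (38.6%) also held Reg3g, against 14 of 496 cells (2.82%) without Reg3b. Saa3 was found in 4 of these 44 cells (9.09%), against 15 of the 496 (3.02%). Saa1 did not follow: it was found in 31.8% of WT cells with Reg3b and in 37.5% of those without. Median depths were 11991.5 UMIs in the cells with Reg3b and 10706.5 UMIs in those without, but within WT colonocyte-like cells they were 3286 and 12139 UMIs. The inverse held for Reg4, present in 2 of the 44 cells (4.55%) with Reg3b and in 24% of those without. Pearson's r of log-scaled counts over the 540 WT cells was 0.42 for Reg3b with Reg3g, -0.06 for Reg3b with Saa1 and -0.09 for Reg3b with Reg4, given as a description since the cells share a library. The r of 0.42 includes the WT cell that probably led both Reg3 genes.

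**Figure D2:**
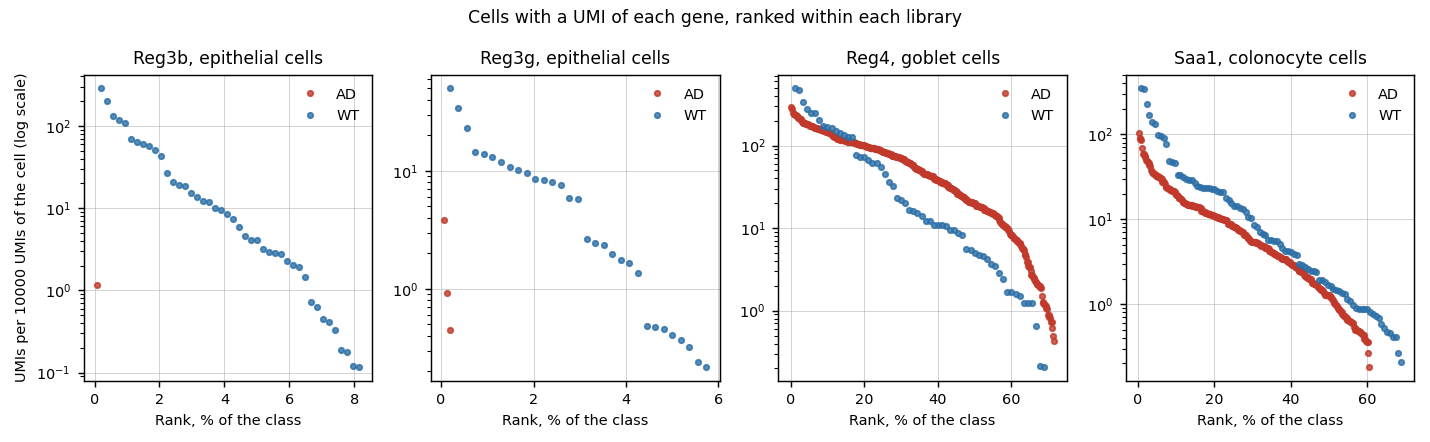
Each point is 1 cell with a UMI of the gene, ranked within its library. The horizontal axis is the rank as a percentage of all cells of the class, and the vertical axis is UMIs per 10000 UMIs of the cell on a log scale. For Reg3b and Reg3g the AD library has 1 and 3 points, and the highest WT cells reach 285 and 49.9 UMIs per 10000, while for Reg4 and Saa1 both libraries form full curves.

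Among the genes most like Reg3b over the 1984 WT epithelial-like cells at the 50% limit were Slc51a (r = 0.42), Car1 (0.37), Osr2 (0.34), Reg3g (0.31), Saa3 (0.23), Cyp2c65 (0.23) and Gsdmc2 (0.22). Slc51a encodes a subunit of the basolateral bile acid transporter, Car1 is a carbonic anhydrase of colon epithelium, both also colonocyte gate markers, and Osr2 is a zinc finger transcription factor. The genes most like Reg3g were Reg3b (0.31), Osr2 (0.18), Prkg2 (0.17), ccdc198 (0.17), Slc10a2 (0.16), Slc51a (0.16), Gata4 (0.16) and Isx (0.16). Slc10a2 is the apical bile acid transporter, known from ileum, and Gata4 is a transcription factor of proximal small intestine. These values are correlations across cells of 1 library, which differ in depth.

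Several of these genes are known for position along the gut, so position genes were set beside Reg3b, from a list chosen after values had been seen. All levels of these position genes are given at the 50% limit. In WT cells with a Reg3b UMI, Osr2 stood at 36.7 CPM (28.4 to 46.6) and in those without at 2.79 CPM (2.02 to 3.76). Slc51a stood at 62.4 CPM (51.5 to 75) in WT cells with Reg3b and at 4.03 CPM (3.09 to 5.16) in those without. Hoxb13, a homeobox gene of the hindgut's posterior end, showed the opposite order, at 40.5 CPM (31.8 to 50.9) in WT cells with Reg3b and 147 CPM (141 to 153) in those without. Between the libraries, Hoxb13 stood at 259 CPM (253 to 266) in AD and 136 CPM (130 to 142) in WT epithelial-like cells. Osr2 had 6 UMIs (0.27 CPM) in AD and 110 UMIs (6.39 CPM) in WT, and Slc51a had 28 UMIs (1.26 CPM) in AD and 176 UMIs (10.2 CPM) in WT. Hoxb7 and Hoxb8 stood at 1.21 and 0.45 CPM in AD and at 5.11 and 2.85 CPM in WT. Of the other genes on the list, Slc10a2, Fabp6, Isx, Slc51b and Hoxd13 were also lower in AD, Gata4 (28 UMIs in AD, 32 in WT) and Hoxa13 (32.4 CPM in AD, 30.7 CPM in WT) were close, and Hoxb6 had 0 UMIs in both. Within the WT library, Slc51b was even between cells with Reg3b (7.67 CPM) and without it (7.86 CPM), Hoxd13 stood at 0.548 CPM with it and 4.29 CPM without, and Hoxa13 at 27.9 CPM with it and 31.1 CPM without. Slc51a, Osr2, Slc10a2, Fabp6, Isx, Hoxb7 and Hoxb8 were thus both lower in AD and higher in WT cells with Reg3b. For Slc51a and Osr2, the higher level with Reg3b restates their correlation with Reg3b over these same WT cells. Slc10a2 and Isx had been ranked by likeness to Reg3g, which shared cells with Reg3b, so they are not independent of that choice either. The part of position in the Reg3b difference was not tested.

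Reg3b was counted, also at the 50% limit, in cells of both libraries that carried the same position gene. Epithelial-like cells with a Slc10a2 UMI held 0 Reg3b UMIs in 77 AD cells (up to 3.9% with a UMI) and 1766 UMIs in 21 of 93 WT cells (22.6%, 14.6 to 32.4). Those with a Fabp6 UMI held 0 in 138 AD cells (up to 2.17%) and 1597 UMIs in 26 of 132 WT cells (19.7%, 13.3 to 27.5). Those with an Isx UMI held 0 in 163 AD cells (up to 1.84%) and 2570 UMIs in 51 of 269 WT cells (19%, 14.5 to 24.2). Those with a Slc51a UMI held 0 in 22 AD cells (up to 13.6%) and 2446 UMIs in 36 of 76 WT cells (47.4%, 35.8 to 59.2). At the posterior end, cells with a Hoxb13 UMI held 1 Reg3b UMI in 1461 AD cells and 221 UMIs in 31 of 672 WT cells (4.61%, 3.16 to 6.48). Median depths of these sets ranged over 10753 to 17842 UMIs in AD and 9755 to 17682 UMIs in WT. The sets were chosen after values were seen and hold cells of 1 library per genotype. The Slc10a2, Fabp6, Isx and Slc51a sets overlap, and each includes the WT cell that held 987 Reg3b UMIs, so they are not separate comparisons. Slc51a was the gene most like Reg3b over these WT cells, so the high share with Reg3b in its WT set restates that ranking. Osr2 gave no usable comparison, with 4 AD cells.

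**Figure D3:**
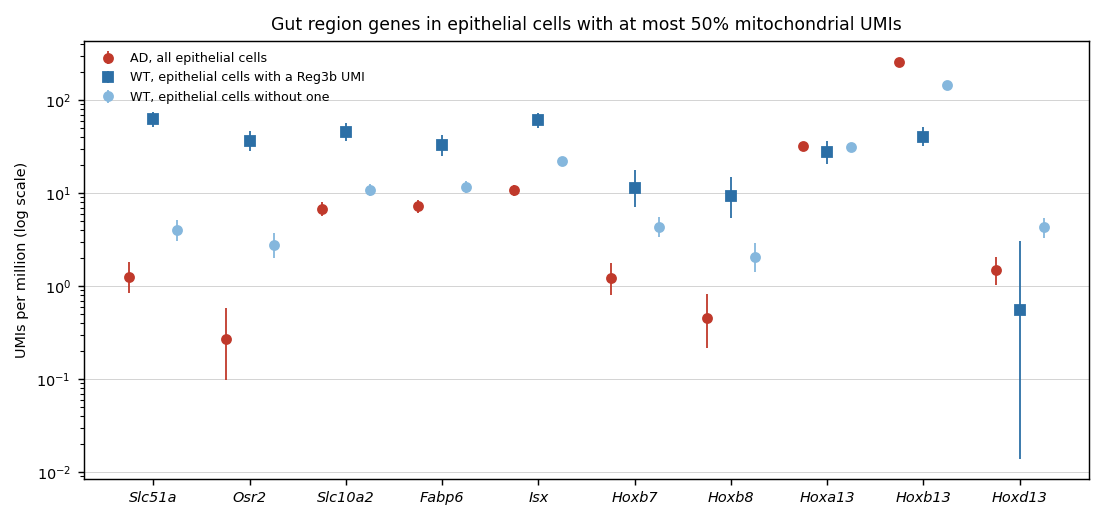
Levels of 10 genes known for position along the gut, in UMIs per 1000000 on a log axis with exact Poisson 95% intervals, in AD epithelial-like cells, in WT epithelial-like cells with a Reg3b UMI and in WT epithelial-like cells without one (50% limit, 1 library each). Slc51a, Osr2, Slc10a2, Fabp6, Isx, Hoxb7 and Hoxb8 are highest in WT cells with Reg3b, while Hoxb13 is lowest there and highest in AD. Slc51a and Osr2 were among the genes most like Reg3b over these WT cells, so their order within WT restates that ranking.

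Reg4 (ENSMUSG00000027876) was abundant in both libraries, and its summed level was higher in AD. Goblet-like cells held 29365 Reg4 UMIs in 352 of 492 AD cells and 5993 UMIs in 62 of 90 WT cells. These were 5766 CPM (5700 to 5832) in AD and 4667 CPM (4549 to 4786) in WT, a log2 ratio of 0.31. The share of goblet-like cells with Reg4 was 71.5% (67.3 to 75.5) in AD and 68.9% (58.3 to 78.2) in WT, and after thinning to 1000 UMIs it was 62.8% in AD (draws of 61.2 to 63.7) and 48.2% in WT (41.5 to 53.7). The WT sum depended on few cells, with 47.7% of Reg4 in the 5 highest WT goblet-like cells and 12% in the 5 highest AD cells. Among cells with a UMI the median count was 35.5 in AD, with a maximum of 1255, and 18 in WT, with a maximum of 730. Without those 5 cells in each library the log2 ratio was 0.95.

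Reg4 was also found outside the goblet-like gate. Epithelial-like cells of no subclass held 4763 UMIs in 102 of 259 AD cells, 2058 CPM (2000 to 2117), and 2371 UMIs in 18 of 121 WT cells, 1548 CPM (1487 to 1612). Their 5 highest cells held 30% of the AD and 86.9% of the WT sum. This group includes cells whose second subclass scored more than 0.5 of the first, so it can hold cells that led for goblet markers. With mixed barcodes kept in their leading class, goblet-like sums were 32291 Reg4 UMIs in AD and 8067 in WT, against 29365 and 5993. Enteroendocrine-like cells held 1280 UMIs in 31 of 63 AD cells, 2575 CPM (2436 to 2720), and 182 UMIs in 11 of 49 WT cells, 404 CPM (348 to 468), a log2 ratio of 2.67. In these, 87.2% of AD and 95.1% of WT UMIs lay in 5 cells. Crypt-like cells stood at 245 CPM (229 to 261) in AD and 155 CPM (141 to 170) in WT, but 1 cell held 391 of 934 AD UMIs and 1 cell 362 of 473 WT UMIs. With the gates of the 50% limit the crypt-like levels were 61.4 CPM (54.2 to 69.2) in AD and 30.2 CPM (25.8 to 35.1) in WT. Over all epithelial-like cells Reg4 stood at 2037 CPM (2016 to 2058) in AD and 1059 CPM (1038 to 1081) in WT, a log2 ratio of 0.94, and at the 50% limit the ratio was 1.58. Goblet-like cells were 492 of 1525 AD and 90 of 540 WT epithelial-like cells, so the summed level mixes the level per cell with the share of secretory cells, and the 2 cannot be told apart in it. Free Reg4 RNA was also present: B-like cells held 52.3 CPM (38 to 70.2) in AD and 13.9 CPM (5.58 to 28.6) in WT. The Reg4 level of colonocyte-like cells, 18.5 CPM in AD and 2.34 CPM in WT, lay below that background and is not read as expression. The genes most like Reg4 in AD cells were Spink4 (r = 0.68), Mptx1 (0.66), Ramp1 (0.62) and Sval1 (0.61), and in WT cells Spink4 (0.54), Ramp1 (0.52), Sval1 (0.52) and Agr2 (0.50). Muc2, the secreted gel mucin, was among the 8 most alike in both libraries. Spink4, Agr2 and Muc2 were also goblet gate markers.

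Saa1 (ENSMUSG00000074115) was highest among epithelial classes in colonocyte-like cells of both libraries. Colonocyte-like cells held 3163 Saa1 UMIs in 285 of 471 AD cells and 1962 UMIs in 93 of 135 WT cells, which were 514 CPM (496 to 532) in AD and 917 CPM (877 to 958) in WT. The log2 ratio was -0.84 (-0.92 to -0.75). The highest cells held 146 UMIs in AD and 171 in WT, and the 5 highest held 16.8% of the AD and 28.9% of the WT sum, so Saa1 was spread over many cells. At equal depth of 1000 UMIs, Saa1 was seen in 29.2% of AD (draws of 27.2 to 32) and 34.4% of WT (32 to 38.5) colonocyte-like cells. The interval of the unthinned shares was 55.9 to 65% in AD and 60.4 to 76.6% in WT, and these overlap.

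The size of the Saa1 difference depended on which cells were kept. With the 50% limit colonocyte-like cells held 4700 UMIs in AD and 13701 UMIs in WT, or 591 CPM (575 to 609) and 2173 CPM (2137 to 2210), a log2 ratio of -1.88. Per 1000000 non-mitochondrial UMIs, Saa1 stood at 951 (837 to 1076) in AD and 2366 (1980 to 2806) in WT among colonocyte-like cells with up to 10% mitochondrial UMIs. It stood at 626 (603 to 650) in AD and 1170 (1117 to 1225) in WT at 10 to 25%, at 1149 (1093 to 1206) in AD and 4389 (4310 to 4469) in WT at 25 to 50%, and at 1529 (1360 to 1712) in AD and 5302 (5172 to 5434) in WT above 50%. The AD level was lower in each of the 4 bins. The first bin rested on 25 AD and 9 WT cells. The summed colonocyte markers were lower in AD in the same bins, by less: at 25 to 50% they stood at 16037 per 1000000 in AD and 21212 in WT.

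**Figure D4:**
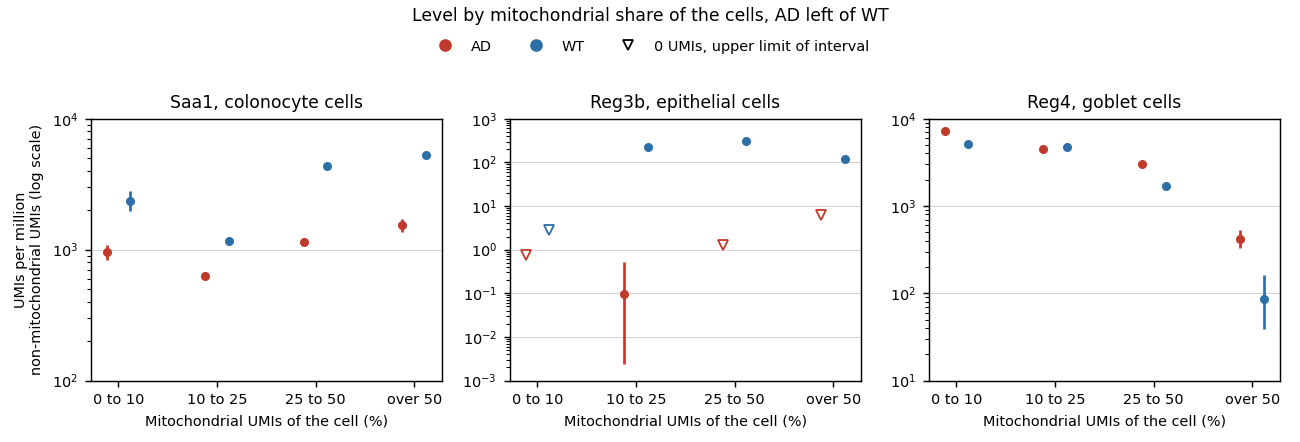
Level of Saa1, Reg3b and Reg4 by the mitochondrial share of the cells, per 1000000 non-mitochondrial UMIs on log axes, with exact Poisson 95% intervals and AD left of WT (1 library each). Open triangles mark 0 UMIs at the upper limit of the interval. Saa1 is lower in AD in all 4 bins, Reg3b has 0 UMIs in both libraries in the lowest bin, and Reg4 is lower in cells with more mitochondrial UMIs in both libraries. At 10 to 25% Reg4 is lower in AD than in WT, and in the other bins it is higher in AD.

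Free Saa1 RNA differed between the libraries in the direction of the colonocyte level. B-like cells held 9 UMIs in 352 AD cells, 10.7 CPM (4.89 to 20.3), and 36 UMIs in 183 WT cells, 71.4 CPM (50 to 98.8). Their shares with a UMI were 2.56% in AD and 16.4% in WT, at median depths of 2147.5 and 2746 UMIs. Saa1 in WT goblet-like cells (70.9 CPM), WT crypt-like cells (18.4 CPM) and WT enteroendocrine-like cells (51.1 CPM) lay at or below that background. In AD, goblet-like cells (9.23 CPM) and crypt-like cells (1.83 CPM) lay below it as well. Epithelial-like cells of no subclass held 55.3 CPM (46.1 to 65.8) in AD, above the AD background, and 26.1 CPM (18.7 to 35.6) in WT, below the WT background. The genes most like Saa1 were Car4 and Aqp8 in both libraries, with r of 0.62 and 0.58 in AD and of 0.74 and 0.71 in WT. Car4 is a carbonic anhydrase of surface colonocytes and Aqp8 a water channel of the same cells, and both were gate markers. In WT the list went on with Cyp2d34 (0.66), Duox2 (0.65), Ceacam20 (0.64), Lypd8 (0.63), Sprr2a3 (0.62) and Ifit1bl1 (0.61), and in AD with Ceacam20 (0.57), Cyp2d34 (0.55), Krt20 (0.54), Prdx6 (0.54), Tgm3 (0.52) and Guca2a (0.51). Duox2 makes hydrogen peroxide at the apical surface, and Lypd8 keeps flagellated bacteria off the colon wall.

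Saa3 (ENSMUSG00000040026), the serum amyloid A gene known outside the liver, was sparse. Colonocyte-like cells held 33 UMIs in 23 of 471 AD cells and 29 UMIs in 15 of 135 WT cells, or 5.36 CPM (3.69 to 7.52) in AD and 13.6 CPM (9.08 to 19.5) in WT. The log2 ratio was -1.34 (-2.10 to -0.57). No AD cell held more than 4 UMIs, and the highest WT cell held 10. Without the highest cell of each library the ratio was -0.94 and without the 5 highest -0.61. At the 50% limit the sums were 45 UMIs in 32 AD cells and 119 UMIs in 78 WT cells, a log2 ratio of -1.73. Saa1 was also found in 21 of the 23 AD cells (91.3%) and 11 of the 15 WT cells (73.3%) with Saa3, against 58.9% of AD and 68.3% of WT colonocyte-like cells without it. Cells with Saa3 were deeper, at medians of 17083 UMIs in AD and 22043 in WT, than those without, at 11306 and 11538. Over WT epithelial-like cells Saa3 was most like Reg3b (r = 0.23) at the 50% limit.

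Saa2 (ENSMUSG00000057465) was at or near 0. Epithelial-like cells held 3 UMIs in AD and 1 UMI in WT, which gives no ratio. At the 50% limit they held 3 UMIs in 2 AD cells and 11 UMIs in 11 WT cells, an AD to WT ratio of 0.211 (0.0378 to 0.799). Saa1 UMIs at that limit numbered 4990 in AD and 14524 in WT, so the near copy of Saa1 was seen at a small fraction of its level. The share of Saa2 counts that are reads of Saa1 was not tested.

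Lcn2 (ENSMUSG00000026822) was rare in epithelium and clearest in another cell type. Endothelial-like cells held 11 Lcn2 UMIs in 4 of 74 AD cells and 24 UMIs in 6 of 86 WT cells, or 53.1 CPM (26.5 to 94.9) in AD and 78.2 CPM (50.1 to 116) in WT. The AD to WT ratio was 0.679 (0.3 to 1.44), an interval that holds 1. All of these UMIs lay in endothelial-like cells with at least 3 of 6 lymphatic markers (Lyve1, Prox1, Mmrn1, Ccl21a, Flt4 and Reln), a list chosen after the values were seen. Such cells held Lcn2 in 4 of 6 AD and 6 of 6 WT cells, and the other endothelial-like cells in 0 of 68 AD cells (up to 4.41%) and 0 of 80 WT cells (up to 3.75%). Lyve1, a hyaluronan receptor of lymphatic vessels, had 64 UMIs in the 6 AD cells and 172 UMIs in the 6 WT cells. All 8 neutrophil markers had 0 UMIs in these cells. Of the 6 lymphatic markers, Ccl21a had 0 UMIs in the 4 AD and 6 WT cells with Lcn2. The highest WT cell held 16 of the 24 UMIs, and without the highest cell of each library 7 AD and 8 WT UMIs remained and the log2 ratio was 0.37 instead of -0.52.

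Epithelial-like cells held 23 Lcn2 UMIs in 12 of 1525 AD cells and 1 UMI in 1 of 540 WT cells. The levels were 1.29 CPM (0.815 to 1.93) in AD and 0.117 CPM (0.00297 to 0.654) in WT, a ratio of 10.9 with an interval of 1.78 to 451. The AD cells were shallow, at a median of 3000.5 UMIs against 9677 in AD epithelial-like cells without Lcn2. By class, 6 UMIs lay in 3 enteroendocrine-like cells, 9 in 4 epithelial-like cells of no subclass, 4 in 3 goblet-like cells, 3 in 1 colonocyte-like cell and 1 in 1 crypt-like cell. In all, 1 of the 12 cells, gated as goblet-like, also held 8 Lyve1 and 12 Mmrn1 UMIs. Prox1, also on the lymphatic list, had 1 to 3 UMIs in several others, which held 0 Lyve1 and 0 Mmrn1 UMIs. Chga, an enteroendocrine gate marker, was also seen in a cell of no subclass (2 UMIs) and in a goblet-like cell (1 UMI). S100a8 and S100a9, which mark neutrophils, had 0 UMIs in all 12. The gate found 1 neutrophil-like cell in AD, with 0 Lcn2 UMIs, and 2 in WT, with 1 UMI each.

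Of the 7 genes, 5 reached 50 UMIs over both libraries in epithelial-like cells, a filter that Saa2 and Lcn2 missed. Of these 5, Reg3b, Reg3g and Saa3 were at least 2-fold lower in AD and none was at least 2-fold higher, while 4.20% of the 11933 genes past the filter were lower and 2.37% higher by that fold. At the 50% limit 4 were lower, Saa1 among them, and Reg4 was higher, against 4.61% and 3.36% of 13149 genes. The genes were picked on this contrast, so these counts describe the choice. In colonocyte-like cells, where 1.29% of 8231 genes were at least 2-fold lower and 2.00% higher, Reg3b, Reg3g and Saa3 were lower by that fold and Saa1 stayed inside it at the 25% limit. With the 50% limit Saa1 was below it too, against 2.99% of 9417 genes lower and 3.19% higher. In goblet-like cells Reg4 stayed inside 2-fold, where 1.73% of 8202 genes were lower and 3.12% higher.

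The receptors and signal carriers past the filter stayed within 2-fold in epithelial-like cells. Of 18 genes on this list, 15 passed the filter in epithelial-like cells, none was 2-fold higher or lower, and their median log2 ratio was 0.01, against -0.04 over all genes past it. Myd88 had 0 UMIs in both libraries and could not be assessed. Stat3, the transcription factor downstream of interleukin 22, had 138 CPM in AD and 132 CPM in WT. Il17re, a subunit of the interleukin 17C receptor, had 22.7 CPM in AD and 24.2 CPM in WT, and Il10rb, a subunit of the interleukin 22 receptor, had 34.4 CPM in AD and 30.5 CPM in WT. The other subunit, Il22ra1, had 30 UMIs in AD and 15 in WT (log2 ratio -0.09, -1.01 to 0.93). Socs3, which is induced by Stat3 and restrains it, had 17.8 CPM in AD and 29.2 CPM in WT (log2 ratio -0.71, -0.96 to -0.47). In colonocyte-like cells Socs3 had 71 UMIs in each library, 11.5 CPM in AD and 33.2 CPM in WT (log2 ratio -1.53), and Tlr2, a receptor for bacterial lipoproteins, had 46 UMIs in AD and 37 in WT (log2 ratio -1.21). These 2 were the genes of 12 past the filter that were at least 2-fold lower there, and none was higher, against 1.29% of all genes lower and 2.00% higher.

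Other inducible defence genes went in both directions. Of 23 matched genes, 19 passed the filter in epithelial-like cells, 5 were at least 2-fold higher in AD and none was lower by that fold, against 2.37% of all genes higher and 4.20% lower, and the median log2 ratio was 0.21. The 5 were Mptx1 (log2 ratio 1.70), a pentraxin, Itln1 (1.70), an intelectin that binds microbial sugars, Slpi (1.24), a protease inhibitor, Ang4 (1.16), an antibacterial ribonuclease, and Retnlb (1.12), a goblet cell protein that acts on Gram-negative bacteria. Mptx1 stood among the genes most like Reg4, and goblet-like cells were 492 of 1525 AD and 90 of 540 WT epithelial-like cells. Free Mptx1 RNA was also higher in AD, with 1791 CPM in AD and 67 CPM in WT in T, natural killer and innate lymphoid-like cells, and its part in the list was not tested. With the 50% limit 20 genes passed, 6 were higher and 3 lower, against 3.36% and 4.61% of all genes, and the median was -0.01. The 3 lower genes were Duox2 (log2 ratio -1.65, -1.73 to -1.56), its maturation factor Duoxa2 (-2.87, -3.71 to -2.17) and Nos2 (-1.36), and Ccl20 (1.03), a chemokine, joined the higher ones. In colonocyte-like cells 2 were higher and 1, Tifa (-1.16), was lower at the 25% limit, and 3 were higher and 4 lower at the 50% limit, against 3.19% and 2.99% of all genes there. Zg16, a lectin of goblet granules, was close to even, at 287 CPM in AD and 289 CPM in WT. At the 25% limit Nos2, the inducible nitric oxide synthase, had 65 UMIs in AD and 46 in WT (log2 ratio -0.58, -1.14 to 0.01).

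Among other members of the 2 families, Reg1 had 53 UMIs in AD and 4 in WT epithelial-like cells (log2 ratio 2.50, 1.22 to 4.58), but 15 in AD and 5 in WT at the 50% limit, where the gates are set anew. Reg2 had 4 UMIs in AD and 2 in WT, Reg3d had 3 in AD and 0 in WT, and Reg3a and Saa4 had 0 in both. Of 12 other acute phase genes, 2 passed the filter and both were at least 2-fold higher in AD, against 2.37% of all genes. C3, the central complement component, had 225 UMIs in AD and 22 in WT (log2 ratio 2.25, 1.65 to 2.99). Cp, the copper carrier ceruloplasmin, had 62 UMIs in AD and 0 in WT, at least 9.84-fold higher in AD. Lrg1 did not pass the filter, with 5 UMIs in AD and 19 in WT.

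**Figure D5:**
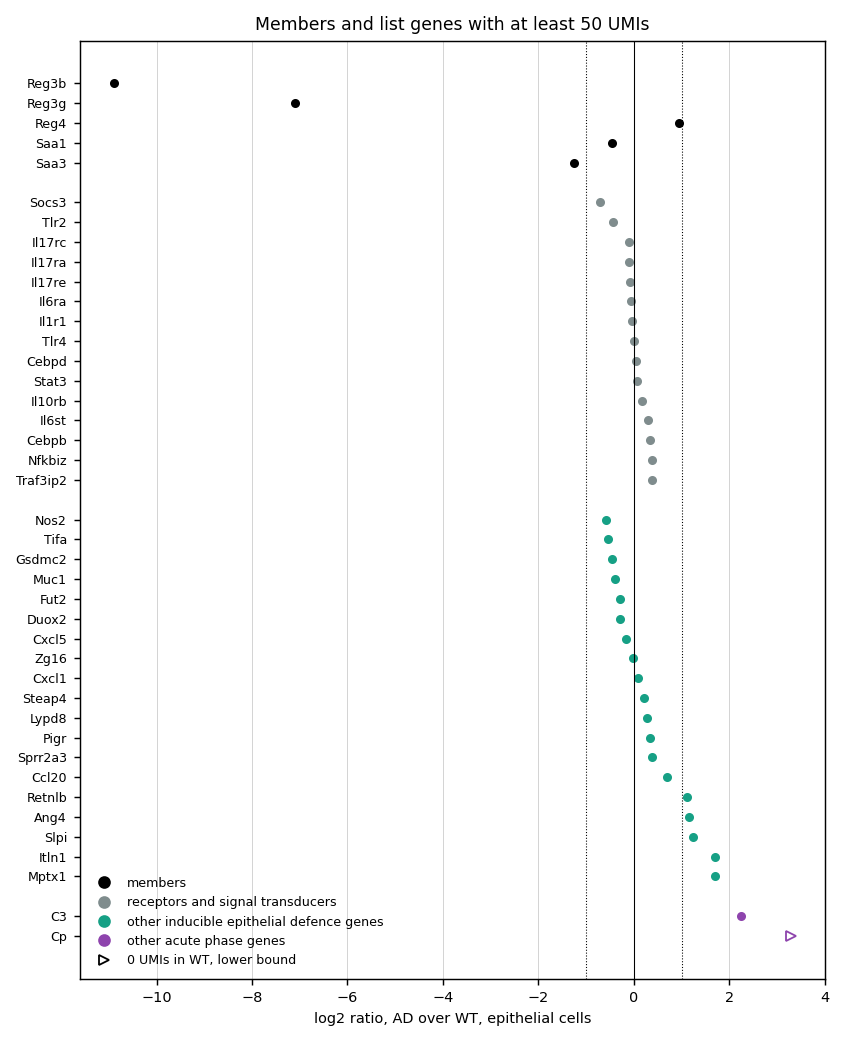
Log2 ratio of AD over WT in epithelial-like cells (horizontal axis) for the members, the receptors and signal carriers, the other defence genes and the other acute phase genes with at least 50 UMIs over both libraries. Dotted lines mark 2-fold, and the open arrow for Cp is a lower bound because WT held 0 UMIs. Reg3b and Reg3g lie at -10.90 and -7.10, while the receptors lie between -0.71 and 0.38.

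The inducing cytokines were read in T, natural killer and innate lymphoid-like cells, 312 in AD and 185 in WT. Of 8 cytokines, 4 passed the filter there and 1 was at least 2-fold higher in AD, where 4.89% of 4295 genes were higher and 2.05% lower. Il17f was under the filter, with 40 UMIs in AD and 2 in WT. Il17a had 618 UMIs in AD and 47 in WT, or 715 CPM in AD and 68.4 CPM in WT (log2 ratio 3.37, 2.96 to 3.85). Il22, the main inducer of Reg3 lectins, had 71 UMIs in AD and 38 in WT, or 82.2 CPM in AD and 55.3 CPM in WT (log2 ratio 0.56, -0.02 to 1.18). Ifng had 265 CPM in AD and 268 CPM in WT. The Il22 interval includes 0 and the Il17a interval does not. Both cover counting error within 1 library per genotype only, so neither decides whether the genotypes differ.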

How the data were processed

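Droplet 3′ RNA libraries of colon cells were analysed from the raw UMI counts per gene and barcode that the authors deposited. Cell Ranger 3.0.1, STAR, Seurat 3.0.2 and the mm10 build are named per the submitters' processing notes, with no roles given. The deposited barcodes are 20 bases long, so the kit version is not settled, and none has fewer than 500 UMIs.

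Kept barcodes had at least 500 UMIs, 200 genes and at most 25% mitochondrial UMIs, or 50% where named. A cell took the class whose markers led, with at least 3 detected, and barcodes whose second lineage scored more than 0.5 of the first were left out in place of a doublet caller. Epithelial-like cells with such a second subclass were not left out but grouped, with those that reached no subclass, as cells of no subclass. The gate's scoring was set with the counts in hand. Within each library the UMIs of a class were added up and scaled to 1000000 UMIs of that class (CPM), with 0.5 counts added for log2 ratios and a floor of 3 counts over the class for genes at 0. With 1 library per genotype there is no replicate, so nothing was tested between genotypes. The 2-fold counts used genes with at least 50 UMIs over both libraries. Cells were thinned to 1000 UMIs in 20 draws. The genes named are the members, the genes of the lists, and the 8 genes with the highest Pearson r to each member with at least 30 positive epithelial-like cells, on log-scaled UMIs per 10000 and among genes in at least 2% of cells or 20 cells. In that ranking 1 gene is not reported here. Members and lists were chosen with earlier results of these data known, and the lymphatic and position lists after their values were seen. Of 199 list genes, 3 were not matched. Promoters came from RefSeq (GRCm38.p6), and protein sequences were not used here. The tuft-deficient mice, organoids and succinic acid treatment that the design text names were not analysed here. The software was Biopython 1.88 for alignments, matplotlib 3.10.9 for figures, and scipy 1.17.1, numpy 2.4.6 and pandas 2.3.3 under Python 3.11.15, and the sums, ratios and intervals were tested on simulated data.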

Additional observations from a re-analysis of the deposited data

How the results depend on the processing

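The 12 log2 ratios of AD over WT were recomputed under 12 alternatives, giving 138 values, of which 106 stayed within the counting interval, 32 moved beyond it and 0 moved beyond it with the opposite sign. Lcn2 in endothelial-like cells was 0.37 without the 1 highest cell, against -0.52, within its interval. With a 50% mitochondrial limit, Reg4 was 1.58 in epithelial-like and 0.49 in goblet-like cells, and Saa1 was -1.91 in epithelial-like and -1.88 in colonocyte-like cells. With no limit, Reg4 was 1.84 in epithelial-like and 0.67 in goblet-like cells, Saa1 was -2.11 in epithelial-like and -1.84 in colonocyte-like cells, and Saa3 was -1.95 in epithelial-like cells. With a 10% limit, epithelial-like values were -2.19 for Reg3g, 0.61 for Reg4, -0.87 for Saa1 and -0.32 for Saa3, Saa1 was -0.48 in colonocyte-like cells and Reg4 was 1.04 in goblet-like cells. Gates at 2 markers gave Reg4 1.50 in epithelial-like and 0.57 in goblet-like cells, gates at 4 markers gave Saa1 -0.69 in colonocyte-like and Reg4 0.21 in goblet-like cells, and keeping mixed barcodes gave Saa1 -0.71 in colonocyte-like cells. Reg4 in epithelial-like cells was 0.98 with median-ratio scaling and 0.91 over totals without mitochondrial UMIs. Without the 1 highest cell of each library, Reg4 was 1.01 in epithelial-like and 0.41 in goblet-like cells. Without the 5 highest, epithelial-like values were -9.13 for Reg3g, 1.40 for Reg4, -0.27 for Saa1 and -0.57 for Saa3, colonocyte-like values were -8.61 for Reg3b, -5.98 for Reg3g and -0.62 for Saa1, and Reg4 was 0.95 in goblet-like cells. The Reg3 values in that sentence have 0 AD UMIs, so they rest on the 0.5 counts added and are neither sizes nor bounds. The cause of these shifts was not tested. Some alternatives gave no value because both libraries held too few UMIs, among them Reg3b at the 10% limit. Genes at least 2-fold lower in AD numbered 501 with the filter of 50 UMIs, 179 with 200 UMIs and 3317 with 1 UMI, and those higher 283, 77 and 2708. No paired analysis was possible because each genotype has 1 library and the labels give no replicate numbers. A difference between libraries cannot be told apart from one between genotypes, and animal, dissection position and cell survival are not separated from genotype in these data.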
